A study of Mus musculus with 69 samples.

Results

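The response of vascular smooth muscle cells (VSMC) without functional Egfr to metabolic and humoral stress applied together was described from 6 of the 69 RNA-Seq libraries of the series. These were the Control and ALL libraries of KO VSMC sets 6, 7 and 8, chosen by the genotype label EGFR-KOsmc and the treatment labels. A set holds the cells of 1 male C57BL/6 mouse at 1 passage, stressed on the same occasion, so that the 6 libraries form 3 pairs from 3 animals. KO VSMC came from the thoracic and abdominal aorta of mice with floxed Egfr alleles and a Cre transgene driven by the SM22 promoter. The deletion was carried by Control and ALL cells alike. The cells had been grown for up to 7 passages, were deprived of serum, and were then kept for 24 h under Control conditions or with the 4 stressors. ALL stressors stood for 20 mM glucose with free fatty acids (HG+FFA), given as 100 µM in the labels and as 100 µM each of oleate and palmitate in the study's text, plus 30 nM angiotensin II with 300 nM of a catecholamine (AII+NA), which the labels call epinephrine and the study's text norepinephrine. The comparison addressed what smooth muscle cells without the EGF receptor still do when glucose, fatty acids and both hormones act at once. Set 5 of KO VSMC has Control, HG+FFA and AII+NA libraries, and an ALL library of it was not analysed here. For comparison there were 16 libraries of WT VSMC from wild-type animals (sets 1 to 4), under the same 4 conditions. A further 38 libraries under these conditions came from endothelial cells of the heart (EC), with WT in their titles. EC sets 15 and 16 came from the animals of KO VSMC sets 7 and 6. EC sets 9 and 10 came from the animals of WT VSMC sets 1 and 2, so that the comparison groups are not fully independent. EC sets 17 and 18 came from 1 and the same animal, and they were treated as separate sets.

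EGFR is a receptor tyrosine kinase that passes growth signals from ligands such as HB-EGF to the MAP kinase cascade, and receptors for angiotensin II and catecholamines can activate it indirectly in smooth muscle. Fatty acids that enter a cell bind the PPAR nuclear receptors, which pair with RXR and switch on genes for fatty acid import into mitochondria, beta-oxidation and lipid storage. LXR receptors respond to oxidized sterols and control cholesterol export and the turnover of lipoprotein receptors. Angiotensin II and catecholamines act mainly through receptors coupled to calcium release, which in smooth muscle drive contraction and growth.

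The 6 libraries held 23238979 to 35120866 counts. Values are given as FPM, counts scaled by the TMM-normalized size of the library, which are not divided by gene length and so compare a gene between libraries and not genes with each other. Egfr (ENSMUSG00000020122, chromosome 11, 16702198 to 16868158, GRCm39) lay at 0.521 to 1.71 FPM in the 6 libraries and at 215 to 473 FPM in the 16 WT VSMC libraries. Set 5 stood apart, with 33.1 to 39.4 FPM of Egfr in its 3 libraries. Over set means, the difference of KO VSMC from WT VSMC on the log2 scale was -6.76 with set 5 (p = 0.0286, two-sided exact permutation test of 4 sets against 4, the smallest p possible). Without set 5 the difference was -7.94 (exact permutation p = 0.0571, which 3 sets against 4 cannot undercut).

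The smooth muscle label was checked against marker genes. Acta2, the smooth muscle actin, lay at 705 to 1761 FPM in the 6 libraries, Lmod1 at 32.0 to 67.3 FPM and Smtn at 48.9 to 123 FPM. Cnn1 was at 7.23 to 78.8 FPM, Mylk at 2.36 to 12.8 FPM and Tagln at 2.33 to 8.18 FPM. The sum over 8 smooth muscle markers was 981 to 1947 FPM under Control and 809 to 1953 FPM under ALL stressors. It was 3010.1 to 3458 FPM in set 5. In WT VSMC it was 360.0 to 1169.7 FPM under Control and 1074 to 1507 FPM under ALL stressors. Myh11, the smooth muscle myosin of contractile cells, was at 2.66 to 9.77 FPM, against 229 to 238 FPM in set 5, and Myocd was under 1 FPM. WT VSMC under Control and ALL conditions held 2.89 to 12 FPM of Myh11. Fibroblast markers were present, with Pdgfra at 89.6 to 153 FPM and Dcn at 63.5 to 621 FPM. The sum over 8 fibroblast markers was 579 to 1404 FPM under Control and 524 to 1068 FPM under ALL stressors. It was higher in set 5, at 2186 to 2471 FPM. In WT VSMC it was 3087 to 5357 FPM under Control and 2036 to 4267 FPM under ALL stressors. The endothelial sum of 10 markers was 4.35 to 13.7 FPM under Control and 4.35 to 6.49 FPM under ALL stressors, and the leukocyte sum of 9 markers 44 to 56.4 FPM and 40.9 to 57.3 FPM. Among the leukocyte markers Lyz2 was at 12.2 to 31.8 FPM and Cd14 at 17.5 to 26.4 FPM in the 6 libraries. Csf1r was at 0.555 to 6.42 FPM and Cd68 at 0.900 to 2.99 FPM, while Itgam and Cd3e were at 0. The Schwann cell sum of 6 markers was 12.7 to 16.4 FPM and 8.82 to 12.1 FPM, and 119.8 to 125 FPM in set 5. Of the adipocyte markers, Cidec, Lep and Car3 were at 0 and Adipoq at no more than 0.0326 FPM. Tnnt2, a cardiac troponin, was at 188, 70.0 and 84.8 FPM under Control and at 114, 17.4 and 33.6 FPM under ALL stressors in sets 6, 7 and 8, while Actc1 was at 0. Fabp4 was the only gene of the 8 marker lists that passed the test between ALL stressors and Control. The part of these cell types in the results was not tested, and in such bulk samples fewer cells of a type and less RNA per cell cannot be told apart.

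**Figure D1:**
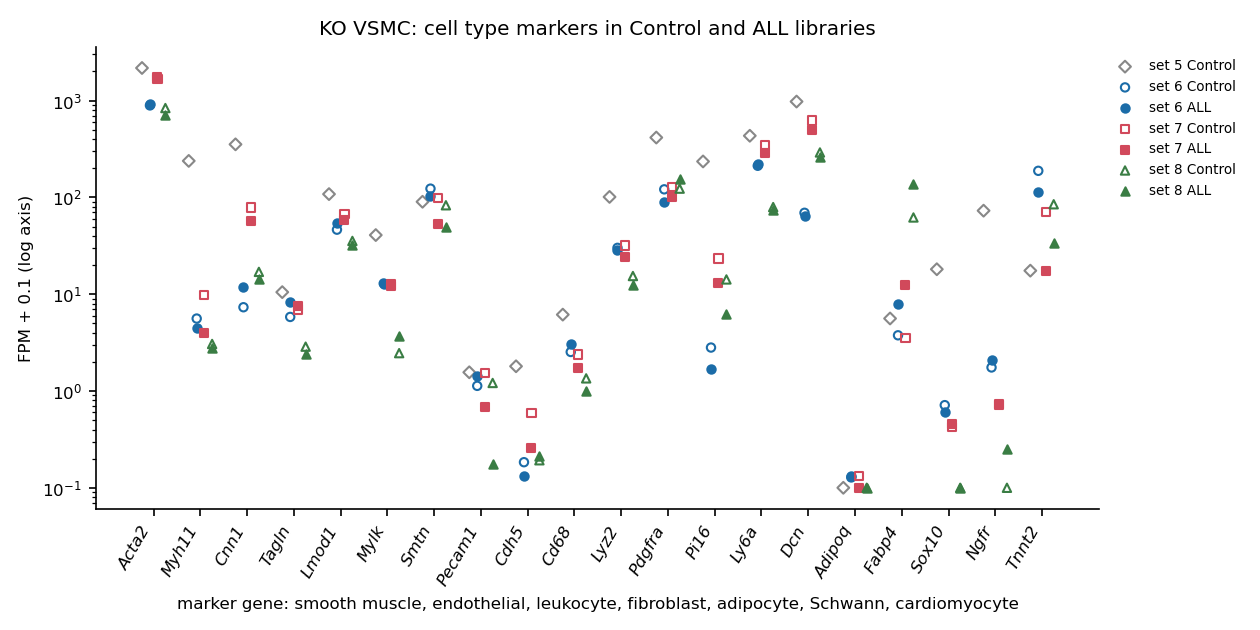
Markers of smooth muscle, endothelial, leukocyte, fibroblast, adipocyte, Schwann and cardiac cells in KO VSMC, with 1 point per library, open for Control and filled for ALL stressors, on a log axis of FPM plus 0.1. Set 5 (grey, Control only) stands above sets 6 to 8 for Myh11, Sox10 and Ngfr, while Acta2 is at 705 FPM or more in every library shown.

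ALL stressors changed 55 differentially expressed genes (DEG) in KO VSMC, 38 higher and 17 lower. That is 0.314% of the 17538 genes tested, with 0.217% higher and 0.0969% lower. Genes counted as DEG when edgeR and DESeq2 both gave an FDR under 0.05, the |log2FC| reached 0.64, the mean FPM of Control or ALL cells reached 3, and the gene was protein-coding or a lncRNA. By FDR alone, edgeR called 70 genes (0.399%) and DESeq2 259 (1.48%), and 1842 (10.5%) had an unadjusted edgeR p under 0.05. The log2FC, SE and FDR of single genes are those of edgeR, with the set as a block and all 15 KO VSMC libraries in the fit. Of the 55 DEG, 54 are protein-coding. All 55 moved the same way in 3 of 3 pairs, which a selection by a test with the set as a block favours. Over all 17538 genes tested, 2766 were higher and 2925 lower in all 3 pairs. In 20 of the 55 DEG the 3 Control and the 3 ALL libraries did not overlap in FPM. This was also the case for 1180 of all genes tested (6.73%). In the other 35 a Control value of one animal reached an ALL value of another, and the change appears within pairs.

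The number of DEG rested on single animals. Without set 5 there were 124 DEG (0.737% of 16821 genes), 53 of them among the 55. Without set 6 only Slc43a3 and Ace remained, 0.0114% of the genes tested. Without set 7 there was no DEG in the combined call and none at an edgeR FDR under 0.05, with 725 genes at an unadjusted edgeR p under 0.05 and 48 called by DESeq2. Without set 8 there were 34 DEG, 24 of them among the 55. The direction of all 55 was kept whichever set was left out. As all 55 moved the same way in 3 of 3 pairs, leaving out 1 pair could hardly change it, and this is no separate support.

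Genes of fatty acid use were among the DEG with the largest log2FC. Angptl4, a secreted inhibitor of lipoprotein lipase (chromosome 17, 33992724 to 34000804, GRCm39), was at 28.3, 31.1 and 245 FPM under Control in sets 6, 7 and 8 and at 219.7, 257 and 640.4 FPM under ALL stressors. Set 8 began high, and its Control value overlapped the ALL values of sets 6 and 7, yet the gene rose in each pair, by 7.73, 8.23 and 2.61 times. Its log2FC was 2.37 ± 0.39 (SE, FDR = 0.0176). Pdk4 (chromosome 6, 5483097 to 5496339) encodes the kinase that shuts off pyruvate dehydrogenase when fat is burned. It went from 55.4, 42.9 and 32.1 FPM to 205, 148 and 132 FPM, with no overlap and with similar ratios of 3.69, 3.45 and 4.11 (log2FC 1.74 ± 0.21, FDR = 0.00271).

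Single genes of fatty acid import into mitochondria and of peroxisomal beta-oxidation rose as well, 2 of 6 tested in the carnitine shuttle and 1 of 13 in peroxisomal beta-oxidation. Cpt1a (chromosome 19, 3371853 to 3437996), which loads long-chain fatty acids onto carnitine at the outer mitochondrial membrane, was at 113, 91.8 and 89.9 FPM under Control and at 258, 205 and 182 FPM under ALL stressors. The groups did not overlap, the ratios of 2.29, 2.23 and 2.02 were close, and the log2FC was 0.99 ± 0.18 (FDR = 0.0254). The Control library of set 5, at 231 FPM, was as high as the ALL libraries, and without this set the log2FC was 1.13 (FDR = 0.000128). Slc25a20, the carnitine-acylcarnitine carrier of the inner membrane, rose without overlap from 33.8, 44.7 and 46.8 FPM to 54.2, 74.7 and 65.7 FPM, but its log2FC of 0.61 (FDR = 0.0139) stayed under the threshold for a DEG. Ech1, an isomerase for unsaturated fatty acids, went from 108, 151 and 217 FPM to 249.9, 285 and 345 FPM (log2FC 0.95 ± 0.13, FDR = 0.00533). Slc25a42, the mitochondrial carrier of coenzyme A, had a log2FC of 0.71 (FDR = 0.0210), and Etfbkmt, which methylates a subunit of the electron transfer flavoprotein of beta-oxidation, one of 0.89 (FDR = 0.0201). Acadl, the long-chain acyl-CoA dehydrogenase, passed the test at a log2FC of 0.50 (FDR = 0.0210).

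Lipid binding, storage and release formed a smaller group. Fabp4, a cytosolic fatty acid carrier, was at 3.66, 3.45 and 61.9 FPM under Control and at 7.73, 12.2 and 139 FPM under ALL stressors, and 24.0% of its exonic bases also lie in other genes. Set 8 was far above the other sets in both conditions, and the ratios within pairs were 2.08, 3.46 and 2.24 (log2FC 1.39 ± 0.16, FDR = 0.00212). Plin2, the coat protein of lipid droplets in most cells, went from 86.3, 104 and 114 FPM to 148, 189.6 and 144 FPM without overlap (log2FC 0.70 ± 0.12, FDR = 0.0200). Lipe, the hormone-sensitive lipase, went from 9.02, 10.9 and 14.3 FPM to 22.9, 20.4 and 19.8 FPM, again without overlap (log2FC 0.89, FDR = 0.0176). The defining adipocyte genes Adipoq, Cidec, Lep and Plin1 were at or near 0 beside these values. Scd2, a desaturase of fatty acid synthesis, fell from 332, 254 and 149 FPM to 219.7, 144 and 109.7 FPM (log2FC -0.68 ± 0.12, FDR = 0.0247), and Vldlr, a lipoprotein receptor, fell with a log2FC of -0.64 (FDR = 0.0489). Fads1, the desaturase for polyunsaturated fatty acids, rose with a log2FC of 0.48 (FDR = 0.0328).

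**Figure D2:**
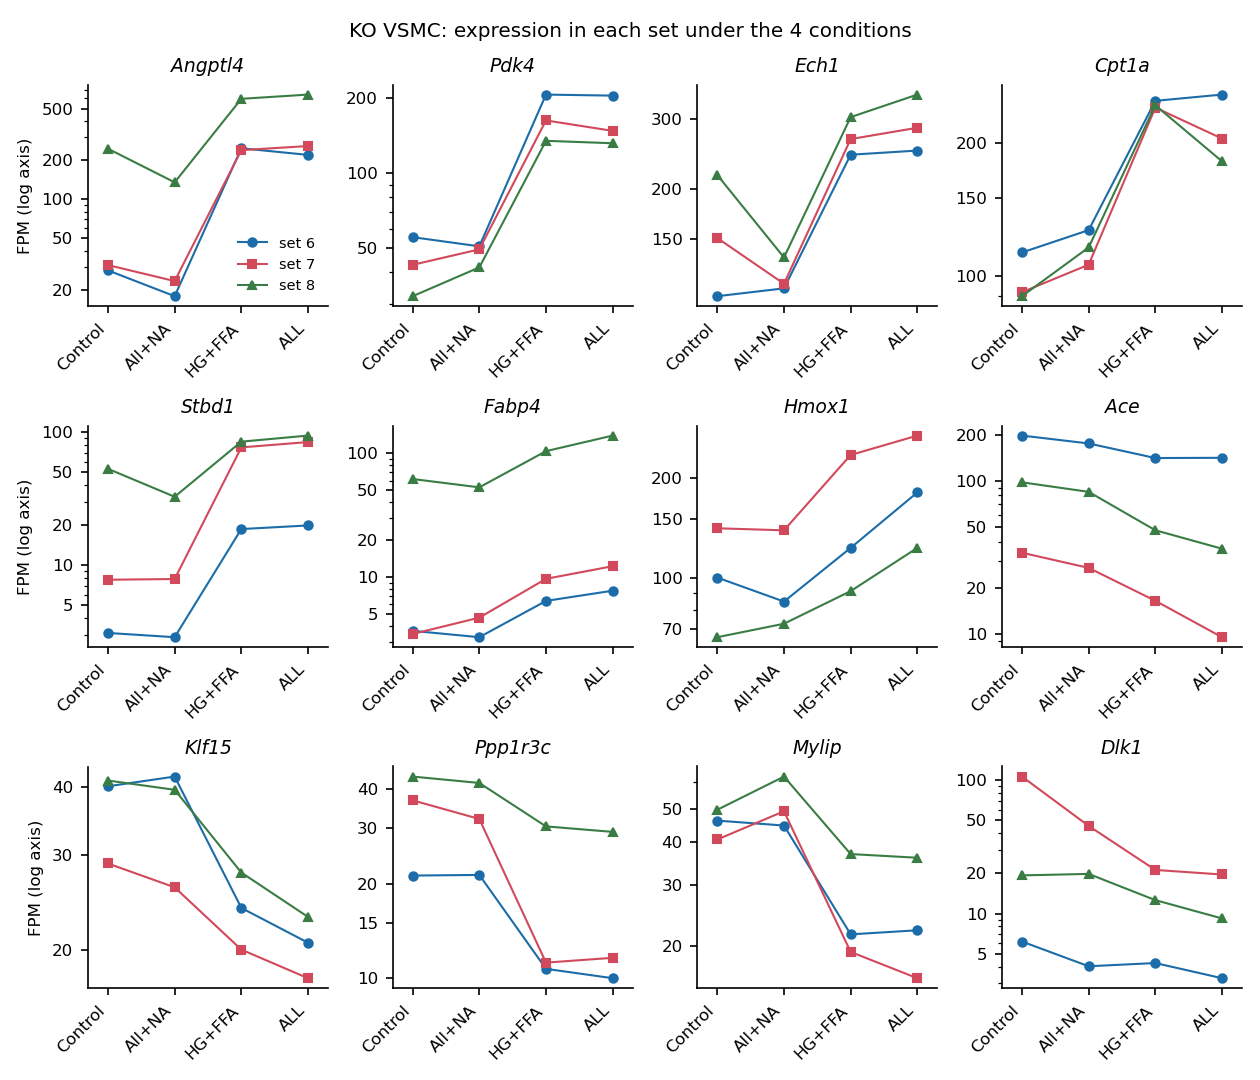
FPM of 12 DEG in KO VSMC sets 6, 7 and 8 under Control, AII+NA, HG+FFA and ALL stressors, on a log axis, with 1 line per set. Pdk4 and Cpt1a lie near Control under AII+NA and near ALL under HG+FFA. Angptl4 lies near ALL under HG+FFA and below Control in each set under AII+NA, at 135 against 245 FPM in set 8. For Ace set 6 is highest and set 7 lowest in all 4 conditions.

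Of the glycogen genes, 1 rose and 1 fell. Stbd1, which tethers glycogen to membranes, was at 3.10, 7.78 and 53.0 FPM under Control and at 19.9, 84.2 and 94.2 FPM under ALL stressors. Its ratios were 6.25, 10.7 and 1.78, least in set 8 where Control was highest (log2FC 2.15 ± 0.38, FDR = 0.0220). Ppp1r3c, a targeting subunit that activates glycogen synthase, fell from 21.2, 36.8 and 43.8 FPM to 9.99, 11.6 and 29.2 FPM (log2FC -1.07 ± 0.20, FDR = 0.0269). These 2 were the only called genes of the 16 tested in glycogen metabolism. In glucose uptake, glycolysis and sensing none of 22 genes was called, and the median log2FC was 0.00. Pfkfb3, which makes an activator of glycolysis, had no overlap between 15.4, 8.21 and 5.59 FPM under Control and 17.7, 16.7 and 18 FPM under ALL stressors, with an FDR of 0.340. Arrdc4, a glucose-sensing arrestin gene, went from 13.9, 19.8 and 13.9 FPM to 8.02, 11.2 and 8.55 FPM (FDR = 0.122).

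The higher DEG included several genes of membrane receptors and of cyclic nucleotide signalling, for which no list was set, while the receptor gene Gfra1 was among the lower DEG. Gabra3, a GABA receptor subunit, went from 0.140, 5.50 and 7.12 FPM to 0.923, 13.8 and 19.5 FPM (log2FC 1.67 ± 0.24, FDR = 0.00612). Gria4, an AMPA glutamate receptor subunit, went from 0.838, 8.73 and 31.3 FPM to 3.21, 40.3 and 59.8 FPM (log2FC 1.5 ± 0.22, FDR = 0.00802). Both genes were lowest in set 6 in either condition. Npy1r, a neuropeptide Y receptor, went from 1.14, 17.2 and 8.23 FPM to 3.15, 59.1 and 14.3 FPM (log2FC 1.26 ± 0.18, FDR = 0.00612). Adcy1, an adenylyl cyclase, went from 1.42, 7.72 and 9.66 FPM to 3.28, 20.0 and 21.5 FPM, with ratios of 2.22, 2.57 and 2.22 (log2FC 1.23 ± 0.19, FDR = 0.0130). Pde1b, a calcium-dependent phosphodiesterase, had a log2FC of 0.91 (FDR = 0.0200) with 35.4% of its exonic bases shared with other genes, and S1pr3, a sphingosine-1-phosphate receptor, one of 0.89 (FDR = 0.0130).

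The proliferin genes Prl2c2 and Prl2c3, which encode prolactin-like growth factors, rose with log2FC of 2.11 ± 0.43 (FDR = 0.0468) and 1.69 ± 0.22 (FDR = 0.00334). Prl2c2 went from 1.73, 0.684 and 5.55 FPM to 3.56, 8.93 and 27.3 FPM, and Prl2c3 from 1.09, 1.73 and 3.79 FPM to 2.48, 6.58 and 16 FPM. They are near-identical copies, reads with several alignments were counted, and their separate values are therefore uncertain. The same holds for Gvin1 and Gvin2, large interferon-inducible GTPases, whose values nearly coincided in each library (32.0 and 32.2 FPM under ALL stressors in set 6) and whose log2FC were 0.91 and 0.90. Styxl2, a catalytically inactive phosphatase relative of striated muscle, went from 0.838, 1.34 and 4.90 FPM to 4.61, 6.19 and 8.37 FPM (log2FC 1.63 ± 0.28, FDR = 0.0200). Slc43a3, a purine nucleobase transporter, was one of the 2 DEG that stayed without set 6. It went from 37.6, 46.4 and 47.2 FPM to 57.8, 120.5 and 103 FPM without overlap (log2FC 1.04 ± 0.15, FDR = 0.00612).

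Hmox1, the heme oxygenase induced by oxidative stress, was at 100.0, 141 and 66.0 FPM under Control and at 181, 269 and 123 FPM under ALL stressors. The ratios of 1.80, 1.90 and 1.86 were among the most even of all DEG, and the log2FC was 0.91 ± 0.11 (FDR = 0.00307). Hmox1 and Ucp2 were the called genes among 16 antioxidant and NRF2 targets. Ucp2, a mitochondrial carrier, went from 0.335, 0.228 and 0.0924 FPM to 1.85, 1.49 and 0.788 FPM (log2FC 2.11 ± 0.41, FDR = 0.0364) and is too low to count as a DEG. Nqo1 and Gclc, the classical NRF2 targets, had log2FC of 0.02 (FDR = 0.977) and 0.16 (FDR = 0.690), and Fth1, ferritin heavy chain, one of -0.40 (FDR = 0.384).

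The remaining higher DEG, named to complete the account after their values were seen, had log2FC of 0.67 to 0.92. Ankrd1, a stretch-responsive gene of muscle, went from 199.8, 254 and 60.3 FPM to 324, 620.0 and 94.1 FPM (log2FC 0.88, FDR = 0.0200). Aldh1a1, which makes retinoic acid, went from 402, 538 and 129.6 FPM to 676, 774 and 246 FPM (log2FC 0.75 ± 0.11, FDR = 0.00612). The retinoid-inducible genes Tgm2, a transglutaminase, and Gprc5a, an orphan receptor, had log2FC of 0.81 (FDR = 0.0405) and 0.79 (FDR = 0.0424). Dusp1, a phosphatase that inactivates MAP kinases, went from 41.1, 81.8 and 32.2 FPM to 70.7, 106 and 62.5 FPM (log2FC 0.67, FDR = 0.0247). Bmp3, a growth factor of the BMP family, had a log2FC of 0.72 (FDR = 0.0296), Slc6a6, the taurine transporter, one of 0.86 (FDR = 0.0468), and Scarb2, a lysosomal membrane protein, one of 0.77 (FDR = 0.0254). Klhl13, an adaptor of a ubiquitin ligase, Masp1, a protease of the complement system, Upk3b, a uroplakin, Resf1, a silencer of retroelements, and the uncharacterized Gm8113 and Gm56906 completed the list. Gm56906, a lncRNA, was the only DEG that is not protein-coding.

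Among the lower DEG were 3 Krüppel-like transcription factors. Klf15, which controls amino acid and lipid use in muscle and liver, went from 40.2, 28.9 and 41.2 FPM to 20.6, 17.7 and 23.0 FPM without overlap (log2FC -0.81 ± 0.11, FDR = 0.00436). Klf5, a factor of dedifferentiated smooth muscle, went from 4.66, 3.94 and 9.52 FPM to 2.83, 1.49 and 4.2 FPM (log2FC -0.99 ± 0.20, FDR = 0.0467). Klf2, best known from endothelium under flow, went from 9.44, 17.1 and 13.8 FPM to 6.87, 4.50 and 7.05 FPM without overlap (log2FC -1.06 ± 0.21, FDR = 0.0424). The fall of Klf15 had an even size in the 3 sets, while that of Klf2 was largest in set 7, at 0.268 of Control.

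Ace, the angiotensin-converting enzyme (chromosome 11, 105858469 to 105880790), was at 197, 33.8 and 97.5 FPM under Control and at 141, 9.48 and 35.9 FPM under ALL stressors. The sets lay far apart, so that the groups overlapped, and within pairs the gene fell to 0.717, 0.283 and 0.369 of Control (log2FC -1.13 ± 0.19, FDR = 0.0200). Dlk1, an imprinted inhibitor of adipogenesis, went from 6.17, 106 and 19.3 FPM to 3.28, 19.6 and 9.19 FPM, with the largest fall in set 7 (log2FC -1.53 ± 0.28, FDR = 0.0249). Mylip, a ubiquitin ligase of cholesterol uptake and a target of LXR, went from 46.3, 40.8 and 49.8 FPM to 22.2, 16.1 and 36.1 FPM without overlap (log2FC -0.94 ± 0.15, FDR = 0.0165). Cbs, which starts the conversion of homocysteine to cysteine, went from 11.9, 9.80 and 3.70 FPM to 6.68, 3.80 and 1.28 FPM (log2FC -1.13 ± 0.19, FDR = 0.0200). Abat, the GABA transaminase, had a log2FC of -0.76 (FDR = 0.0254), Bckdhb, a subunit of the dehydrogenase for branched-chain amino acids, one of -0.66 (FDR = 0.0258), and Hsd11b1, which activates glucocorticoids, one of -0.68 (FDR = 0.0254). Gfra1, a receptor for GDNF, had a log2FC of -0.83 (FDR = 0.0247), Boc, a co-receptor for hedgehog ligands, one of -0.67 (FDR = 0.0410), Plekha4, a lipid-binding adaptor, one of -0.79 (FDR = 0.0296) and Ccdc148 one of -1.05 (FDR = 0.0304). Nfasc, a neuronal adhesion molecule, lay at 0.693 to 7.57 FPM under Control in the 3 pairs and at 61.2 FPM in set 5, and without set 5 it was no longer called (log2FC -0.91, FDR = 0.121).

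**Figure D3:**
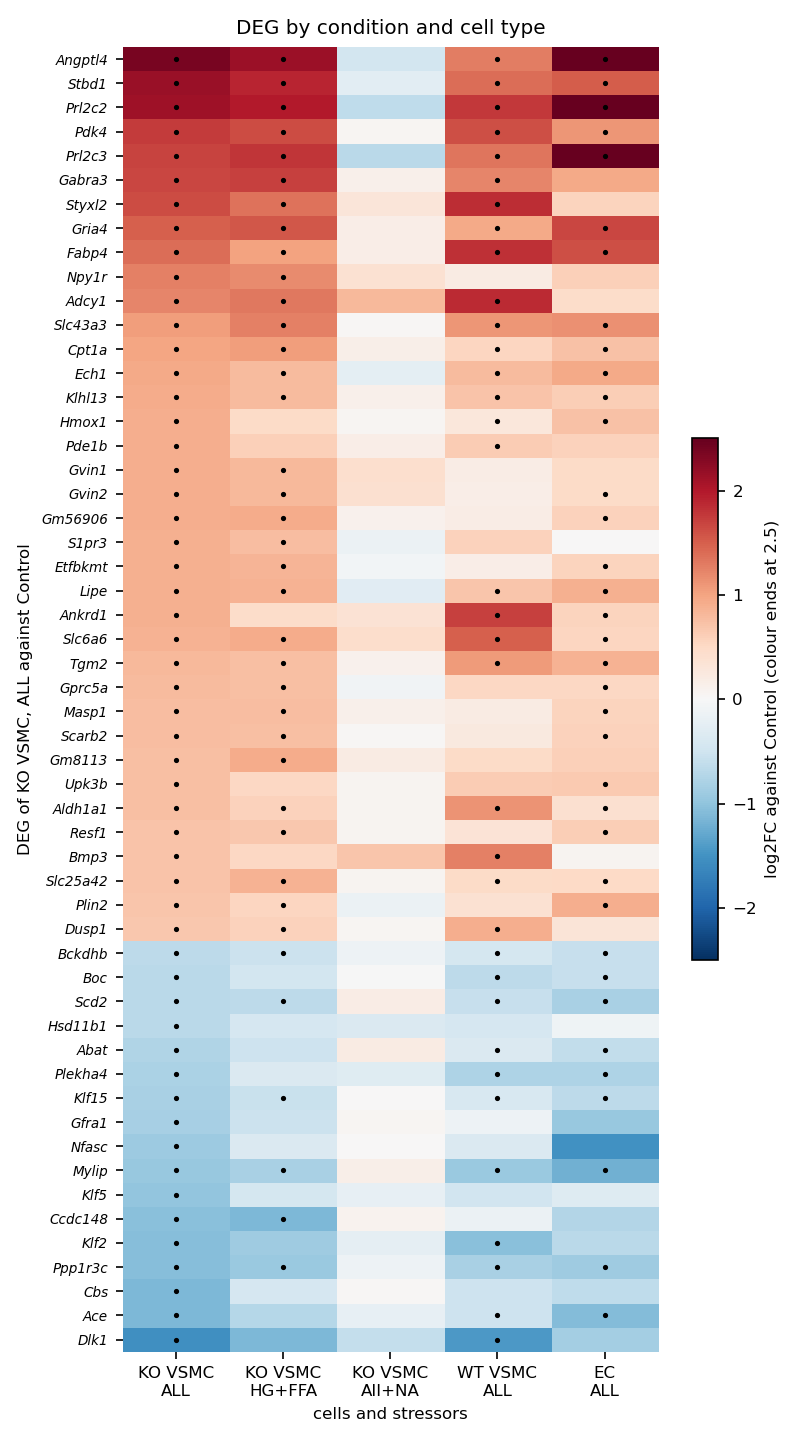
Log2FC against Control of the DEG (rows, 1 of the 55 left out, ordered by their log2FC under ALL stressors in KO VSMC) in KO VSMC under ALL, HG+FFA and AII+NA and in WT VSMC and EC under ALL stressors, with a dot where the edgeR FDR was under 0.05 and colours that end at 2.5 on either side. Over all 38 higher DEG the median under HG+FFA was 0.86, no dot stands in the AII+NA column, and the colours of the WT VSMC and EC columns have the sign of the first column in every row shown.

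A sequence that PPAR and RXR bind as a pair, 2 copies of a hexamer 1 base apart (AGGNCANAGGNCA, searched on both strands), was looked for within 5000 bases of the annotated gene starts in GRCm39. It was found at 18.1% of 15711 tested protein-coding and lncRNA genes, at 2 of 38 higher DEG (5.26%), at 5 of 17 lower DEG (29.4%) and at none of the 6 DEG among the PPAR targets. The absence of a match says only that these letters are not in this window. The matches nearest to a gene start among the DEG are shown with the motif in capitals on the motif's strand, to let the spacing and the variable bases be seen, and they are a description of sequence and not of binding. The Scd2 match lies on chromosome 19 in chr19:44281011-44281071, at -572 bases from the start, that of Gprc5a in chr6:135040858-135040918, at -921 bases, that of Abat in chr16:8332492-8332552, at 1289 bases, and that of Etfbkmt in chr6:149039555-149039615 on the minus strand, at -1729 bases.
Scd2: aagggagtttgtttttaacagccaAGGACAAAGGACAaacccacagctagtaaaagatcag
Gprc5a: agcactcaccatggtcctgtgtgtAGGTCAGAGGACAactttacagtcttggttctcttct
Abat: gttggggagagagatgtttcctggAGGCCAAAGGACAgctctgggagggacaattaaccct
Etfbkmt: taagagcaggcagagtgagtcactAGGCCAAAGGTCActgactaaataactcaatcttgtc

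Pathways were followed with 29 gene lists, of which the count of called genes (edgeR FDR under 0.05) and the median log2FC are given. Over all 17538 genes tested 0.279% were called higher and 0.120% lower, and the median was -0.00. Of these genes 8711 had a log2FC above 0 and 8827 one below 0. Of 30 PPAR target genes tested 9 were called higher and 0 lower, 26 had a log2FC above 0, and the median was 0.35. The list was assembled from general knowledge, with earlier results of these data known. Lists share genes, so that their counts are not independent. Of the called PPAR targets, Cpt1a and Slc25a20 are counted again in the carnitine shuttle and Acadl in mitochondrial beta-oxidation. Fabp4 is counted again in fatty acid uptake, Plin2 in lipid droplets, Pdk4 in pyruvate entry and Ucp2 among the NRF2 targets. In the carnitine shuttle 2 of 6 genes were called higher (median 0.36), in mitochondrial beta-oxidation 1 of 15 (0.23) and in peroxisomal beta-oxidation 1 of 13 (0.15). Acyl-CoA thioesterases had no called gene among 8 (0.06), fatty acid uptake and activation 1 higher and 1 lower of 15 (0.07), lipid droplet and lipolysis 2 higher of 17 (0.06) and fatty acid synthesis 1 higher and 1 lower of 13 (-0.04). None of the 6 PPAR receptors and partners was called. Pparg, the receptor best known from adipocytes, went from 1.51, 3.09 and 3.33 FPM to 2.13, 6.38 and 8.25 FPM, with a log2FC of 0.88 (FDR = 0.123) and of 0.96 (FDR = 0.0445) without set 5. Ppard lay at 23.9 to 41.0 FPM under Control with a log2FC of 0.04, and Rxra at 113 to 122 FPM with one of -0.06.

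Sterol genes showed few calls. All 8 LXR receptors and targets had a log2FC below 0, and Mylip was the one called. The median was -0.60 with set 5 and -0.36 without it, and the medians of the ratios within sets 6, 7 and 8 were -0.23, -0.50 and -0.33. Abca1, the cholesterol exporter, went from 57.0, 71.3 and 85.4 FPM to 18.9, 50 and 77.2 FPM (log2FC -0.88, FDR = 0.118). Apoe, the apolipoprotein E gene, went from 288, 491 and 1545 FPM to 224, 209.6 and 564 FPM, and was called without set 5 alone (log2FC -1.06, FDR = 0.0114, against -0.92 and 0.112 with it). In cholesterol synthesis 21 of 25 genes had a log2FC above 0 and none was called (median 0.27). The medians of the list in sets 6, 7 and 8 were 0.14, -0.13 and 0.57.

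The lists for the cell's growth and contraction held no called gene. This was so for 15 contractile genes (median -0.01), 31 extracellular matrix genes (-0.05), 11 matrix proteases and inhibitors (-0.01), 20 DNA replication genes (0.03), 18 ErbB receptors, ligands and feedback genes (-0.15) and 17 immediate early genes (-0.26). The contractile genes Acta2, Cnn1, Tagln, Mylk and Myh11 had log2FC of -0.01, 0.01, 0.16, -0.01 and -0.63. Myh11 went from 5.50, 9.77 and 2.96 FPM to 4.39, 3.84 and 2.66 FPM (FDR = 0.405), and of Tagln 66.7% of the exonic bases also lie in other genes. Smtn, smoothelin, had a log2FC of -0.55 (FDR = 0.0980) and of -0.63 (FDR = 0.0153) without set 5. Among 21 genes of G2 and mitosis 0 were called and the median was 0.17, but the sets went different ways, with medians of -0.06, -0.59 and 1.34. Mki67, the proliferation marker, was at 38.3, 8.05 and 0.878 FPM under Control and at 38.9, 7.79 and 4.43 FPM under ALL stressors (log2FC 0.42, FDR = 0.643). All 17 immediate early genes had a fitted log2FC below 0, among them Egr1 with -0.42 (FDR = 0.429) and Fos with -0.13 (FDR = 0.832). Only 7 of the 17 were lower in all 3 pairs. Hbegf, a ligand of EGFR, went from 60.3, 25.2 and 12.9 FPM to 37.4, 17.7 and 13.8 FPM (log2FC -0.36, FDR = 0.534).

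Receptors for the hormones of the mixture were expressed at low counts or differed between animals. Agtr1a, the main angiotensin II receptor, was at 0.475, 0.0977 and 0.508 FPM under Control and at 0.827, 0.392 and 2.21 FPM under ALL stressors (log2FC 1.41 ± 0.43, FDR = 0.231). Its second copy Agtr1b was at 1.14, 2.12 and 4.71 FPM and at 1.40, 1.49 and 4.84 FPM (log2FC 0.01, FDR = 0.992). Adra1d, an alpha-adrenergic receptor, was at 110.3, 108 and 13.4 FPM and at 119.7, 57.5 and 11.4 FPM (log2FC -0.35, FDR = 0.449), Adra1b had a log2FC of 0.22 (FDR = 0.647), and Adra1a was at 0 in 5 of the 6 libraries. Agtr2, the other type of angiotensin II receptor, had a log2FC of -0.54 (FDR = 0.651). Of 17 angiotensin and adrenergic genes tested, Ace was the only one called, and the median was 0.01.

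The other lists were pyruvate entry with Pdk4 as 1 called gene of 10 (median -0.09), glycogen metabolism with a median of -0.04, ER stress and integrated stress response with 0 of 16 (-0.12), aryl hydrocarbon receptor targets with 0 of 6 (0.11), circadian clock genes with 0 of 15 (-0.01), inflammatory genes with 0 of 16 (-0.04) and interferon-stimulated genes with 0 of 9 (-0.15). The antioxidant and NRF2 targets had a median of 0.17. Of 11 imprinted growth genes 10 had a log2FC below 0, and Dlk1 was the one called (median -0.34). H19, an imprinted lncRNA, went from 9.10, 2.87 and 34.9 FPM to 7.70, 1.33 and 4.50 FPM (log2FC -1.41, FDR = 0.194). Without set 5, Sdf2l1 and Xbp1, genes of the unfolded protein response, were called lower (log2FC -0.74, FDR = 0.00458, and -0.51, FDR = 0.0165).

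**Figure D4:**
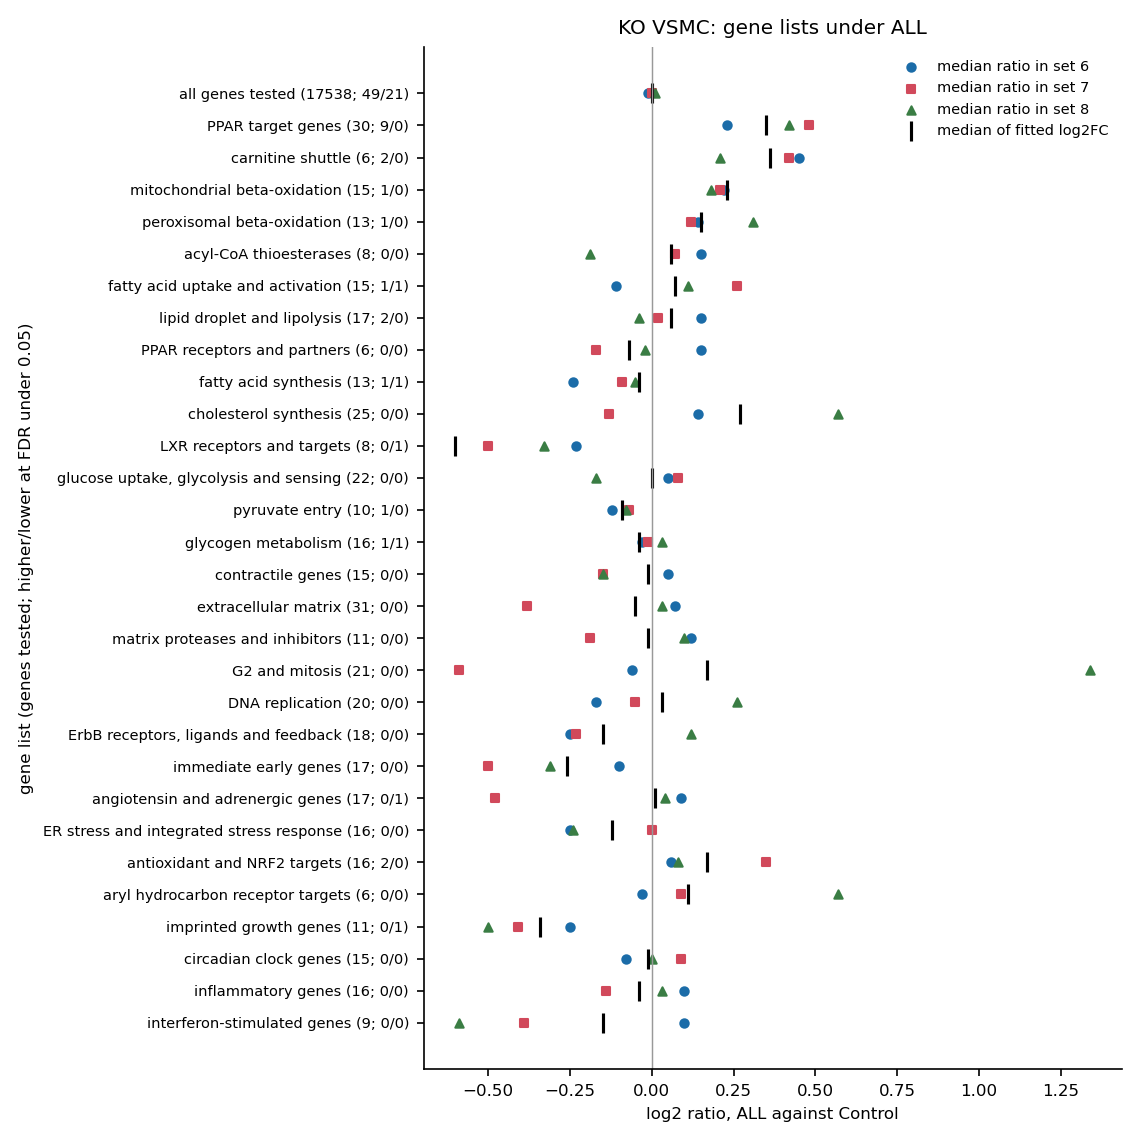
Log2 ratio of ALL stressors against Control for 29 gene lists and for all genes tested in KO VSMC, with points for the median ratio within set 6, 7 or 8 and a bar for the median of the fitted log2FC. The label of each row gives the genes tested and the genes called higher and lower, and the points of PPAR target genes lie at 0.23, 0.48 and 0.42 while those of G2 and mitosis spread from -0.59 to 1.34.

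The values of the 55 DEG were set beside those under HG+FFA and under AII+NA in the same cells. All these comparisons share their Control libraries, so that they are not independent, and the values are given as a description. The 38 higher DEG had a median log2FC of 0.90 under ALL stressors, of 0.86 under HG+FFA and of 0.07 under AII+NA. The 17 lower DEG had medians of -0.90, -0.54 and -0.01 in the same order. Pdk4 had log2FC of 1.74, 1.63 and 0.05 and Mylip of -0.94, -0.81 and 0.15. Bmp3 differed from these, with 0.72 under ALL stressors, 0.52 under HG+FFA and 0.70 under AII+NA, as did Adcy1 with 1.23, 1.32 and 0.81. The PPAR target genes had medians of 0.35, 0.30 and 0.00. HG+FFA gave 50 DEG (0.285%) and AII+NA gave 0 in the combined call and 0 at an edgeR FDR under 0.05, with 11 called by DESeq2 (0.0627%) and 1711 at an unadjusted edgeR p under 0.05 (9.76%).

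What the hormones added to HG+FFA was tested directly as ALL against HG+FFA. No gene was a DEG and none was called by edgeR or by DESeq2, the lowest edgeR FDR was 0.999, and 510 genes (2.91%) had an unadjusted edgeR p under 0.05. In a fit to the 3 pairs of these 2 conditions alone, edgeR again called 0 genes and DESeq2 called 61. Hmox1 was at 123, 235 and 91.0 FPM under HG+FFA and at 181, 269 and 123 FPM under ALL stressors, a log2FC of 0.44 ± 0.11 (FDR = 0.999). Cbs was at 8.52, 6.96 and 2.44 FPM under HG+FFA and at 6.68, 3.80 and 1.28 FPM under ALL stressors (log2FC -0.71 ± 0.19, FDR = 0.999). In both genes the 3 pairs went one way, without passing the test over all genes. How many of all genes went one way in 3 pairs here is not given, and against Control many did. The departure of ALL stressors from the sum of both single effects was 0 genes at an edgeR FDR under 0.05 and 0 by DESeq2 (lowest FDR 0.658, 1155 genes or 6.59% at an unadjusted edgeR p under 0.05). Without set 5 edgeR still called 0 genes, with a lowest FDR of 0.0722 and 3825 genes (22.7%) at an unadjusted p under 0.05, and DESeq2 called 1370. With set 5 in the fit, edgeR called genes in this test only when the count filter was dropped. Whether effects add up in KO VSMC therefore depends on the count filter, and on the tool once set 5 is left out.

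What the metabolic stressors added to the hormones was tested as ALL against AII+NA, with 53 DEG (0.302% of the genes tested), 35 higher (0.2%) and 18 lower (0.103%). Among the largest log2FC were those of Angptl4 (2.83), Prl2c2 (2.74), Stbd1 (2.42) and Prl2c3 (2.37). On the lower side stood Abca1 (-1.23, FDR = 0.0187), Cbs (-1.15), Ccdc148 (-1.14), Mylip (-1.09) and Abi3bp, an extracellular matrix protein (-1.09, FDR = 0.0217). This comparison shares its ALL libraries with that against Control.

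Without set 5, whose marker genes stood apart, 124 DEG were found, 67 higher and 57 lower, and 71 of them were not among the 55. These 71, named here after their values were seen, included further genes of fat metabolism. Slc22a5, the carnitine transporter of the plasma membrane, went from 23.7, 25.1 and 19.9 FPM to 35.0, 46 and 29.8 FPM without overlap (log2FC 0.67, FDR = 0.00975, against 0.62 and 0.0789 with set 5). Klf11, a transcription factor of glucose and lipid genes, went from 16.5, 16.9 and 19.9 FPM to 28.5, 26.4 and 36.3 FPM without overlap (log2FC 0.76, FDR = 0.00827). Cebpa and Cebpd, transcription factors of adipocyte differentiation, fell with log2FC of -0.67 (FDR = 0.0235) and -0.71 (FDR = 0.0144). Agt, the angiotensin precursor, fell from 1.40, 21.2 and 51.3 FPM to 1.15, 6.89 and 28.3 FPM (log2FC -1.03, FDR = 0.0355), with 30.8% of its exonic bases in other genes. Cdkn1c, an imprinted inhibitor of the cell cycle, had a log2FC of -0.99 (FDR = 0.0329). Heg1, a membrane protein of vessel walls, rose from 70.2, 148 and 55.2 FPM to 144, 288 and 107 FPM (log2FC 0.98, FDR = 0.00458). Markers of other cells were also among the 71, with Pi16 of fibroblasts at a log2FC of -0.94 (FDR = 0.00980), S100b of Schwann cells at -0.69 (FDR = 0.0363) and Tnnt2 at -1.35 (FDR = 0.00631), and their part in the other values was not tested. Nfasc and Scd2 were DEG with set 5 only, Scd2 with a log2FC of -0.62 (FDR = 0.0176) without it.

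Libraries of WT VSMC and EC, which took no part in the choice of the 55 DEG, gave the same measure again. In WT VSMC 7.45% of all genes were called between ALL stressors and Control, 3.92% higher and 3.53% lower. Of the 55 DEG of KO VSMC 36 were called there in the same direction, 25 of 38 higher and 11 of 17 lower, none was called in the opposite one, and the sign was the same in 55 of 55. The median log2FC of the higher DEG was 0.75 in WT VSMC and 0.90 in KO VSMC, and that of the lower DEG -0.52 and -0.90. The KO VSMC values of these genes were selected for their size and the WT VSMC values were not. Pdk4 had a log2FC of 1.62 (FDR = 0.00100) in WT VSMC, Angptl4 one of 1.28 (FDR = 0.0138) and Fabp4 one of 1.82 (FDR = 0.000794). Npy1r was not called in WT VSMC (0.21, FDR = 0.493), and neither was Klf5 (-0.47, FDR = 0.129). In EC, where 3.18% of all genes were called, 1.13% higher and 2.05% lower, 37 of the 55 were called in the same direction, 28 higher and 9 lower, and 55 of 55 had the same sign. Angptl4 had a log2FC of 3.22 (FDR = 2.90e-08) and Cpt1a one of 0.73 (FDR = 3.75e-08) in EC. EC sets 15 and 16 came from the animals of KO VSMC sets 7 and 6, and without them 33 were called and 53 had the same sign. The share of equal signs over all genes tested is not given here, so that the sign counts stand without a background.

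Several lists had other counts in WT VSMC. In cholesterol synthesis 17 of 25 genes were called higher there with a median of 0.54, against 0 and 0.27 in KO VSMC, and in G2 and mitosis 11 of 21 with a median of 0.76, against 0 and 0.17. Mki67 had a log2FC of 1.3 (FDR = 0.000564) in WT VSMC and Sqle, an enzyme of cholesterol synthesis, one of 0.89 (FDR = 0.000436), while Sqle had one of 0.06 (FDR = 0.906) in KO VSMC. Contractile genes had a median of 0.49 in WT VSMC with 2 of 15 called, and Agtr1b and Adra1b were called there (1.40, FDR = 0.00100, and 0.89, FDR = 0.00265). A gene called in one genotype and not in the other is not thereby shown to differ between them.

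The difference itself, the log2FC of ALL stressors in KO VSMC minus that in WT VSMC, was called for 2 of 18339 genes (0.0109%) by edgeR and for 58 by DESeq2 (0.316%), with 1361 genes (7.42%) at an unadjusted edgeR p under 0.05. None of the genes named in the paragraph above was among the 2. Anxa8, a membrane-binding annexin, was at 123, 105 and 61.6 FPM under Control and at 114, 107 and 44.9 FPM under ALL stressors in KO VSMC. In WT VSMC sets 1 to 4 it went from 62.6, 30.7, 19.4 and 16.9 FPM to 35.5, 14.8, 11.1 and 9.35 FPM. It thus fell in WT VSMC (log2FC -0.88, FDR = 6.97e-06) and had a log2FC of -0.16 (FDR = 0.642) in KO VSMC, with a difference of 0.73 ± 0.12 (FDR = 0.0303). Aldh3a1, an aldehyde dehydrogenase and target of the aryl hydrocarbon receptor, was at 80.5, 63.6 and 76.5 FPM under Control and at 132, 65.7 and 103 FPM under ALL stressors in KO VSMC (log2FC 0.42, FDR = 0.235). In WT VSMC it went from 11.8, 36.7, 6.03 and 21.4 FPM to 6.65, 19.5, 3.83 and 5.82 FPM (log2FC -1.06, FDR = 0.00326), and the difference was 1.48 ± 0.24 (FDR = 0.0303). Both calls were lost without WT VSMC set 1, 2 or 4 or without KO VSMC set 6 or 7. Aldh3a1 alone of the pair was called without WT VSMC set 3 and Anxa8 alone without KO VSMC set 8, and without set 5 both stood among 7 called genes.

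**Figure D5:**
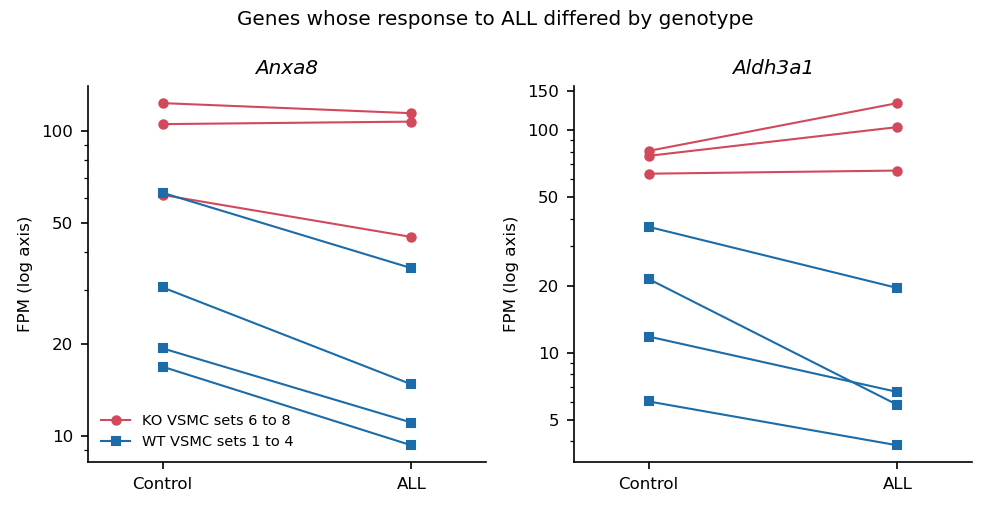
FPM of Anxa8 and Aldh3a1 on a log axis under Control and ALL stressors, with 1 line per set, in KO VSMC sets 6 to 8 (red circles) and WT VSMC sets 1 to 4 (blue squares). All 4 WT VSMC lines fall for both genes, from 62.6 to 35.5 FPM in the highest Anxa8 set, while the KO VSMC lines of Aldh3a1 rise or stay level, from 63.6 to 65.7 FPM in set 7.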

How the data were processed

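RNA of cultured mouse cells was sequenced in 69 libraries, and the authors deposited raw counts per gene in tables of the whole series. The submitters' notes name HISAT2 (version 2.1.0) for alignment, and the study counted reads over exons with featureCounts on the mm39 genome, reads with several alignments included. The strand setting is not given in the sources used here. Of 56953 gene identifiers 56310 were found in the GENCODE annotation (GRCm39) used for positions, whose release differs from that of the counts.

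The computations were made in R 4.3.3 with edgeR 4.0.16 and DESeq2 1.42.0, and figures in Python 3.11.15 with matplotlib 3.10.9. Genes were kept by edgeR's count filter, libraries were scaled by TMM, and edgeR's quasi-likelihood test with Benjamini-Hochberg adjustment was fitted to all 15 KO VSMC libraries with set as a block, where set 5 contributes through HG+FFA and AII+NA. DESeq2 was run on the same design. DEG were protein-coding or lncRNA genes for which both tools gave an FDR under 0.05, with the |log2FC| reaching 0.64 and the mean reaching 3 FPM. Ratios within pairs used FPM plus 0.1. The set pairs the libraries because it marks 1 animal and passage. Deviations from the group means correlated at 0.70 to 0.81 within the 3 sets and at -0.70 to -0.06 between different sets. The deviations of a group cancel out, so that positive values within sets force negative ones between sets on average. Libraries of the same condition differed beyond counting noise (smallest chi-square per degree of freedom 104). WT VSMC and EC were fitted alike, and the genotype difference in a fit of KO and WT VSMC together. The scripts were tested on simulated data.

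The members, gene lists and markers were chosen with earlier results of these data known. Named were up to 15 DEG per direction with the largest |log2FC| and the same direction in 3 pairs, DEG in the lists, the top 3 genes of each list, up to 5 genes per direction in other comparisons, and preset receptor and contractile genes. The other DEG and the genes called without set 5 were added after their values were seen. Between 17.0% and 35.4% of the exonic bases of Ace, Tgm2, Lipe, Gfra1, Fabp4, Ankrd1, Agt, Cnn1 and Pde1b lie in other genes as well, and reads there cannot be assigned with certainty. Alternatives were another scaling, DESeq2 alone, no count filter, no block, fewer conditions, a larger log2FC and leaving out each set. Some genes that meet the naming rule are not reported here.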

Additional observations from a re-analysis of the deposited data

Results flagged for a closer look

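A Dixon test at the 95% level was applied to 65 measures over the 4 KO VSMC Control libraries. Its error rate of 5% holds for independent, normally distributed values. The measures share the same libraries and overlap in part, so that the number found cannot be set against that rate. For 10 measures the highest value lay further from the other 3 than the test allows. In set 5 these were Egfr at 39.4 FPM, the summed leukocyte markers at 136 FPM, the summed Schwann cell markers at 125 FPM, Cpt1a at 231 FPM, Plekha4 at 36.2 FPM and Nfasc at 61.2 FPM. In set 8 they were Styxl2 at 4.90 FPM, Fabp4 at 61.9 FPM and the summed adipocyte markers, which Fabp4 dominates, at 63.4 FPM. In set 7 it was Dlk1 at 106 FPM. Set 5 has no ALL library in the comparison, so that its values enter only through the spread and the other conditions.

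The effect of ALL stressors differed between KO and WT VSMC by the test of the difference itself for Anxa8, by 0.73 on the log2 scale, and for Aldh3a1, by 1.48. Each WT VSMC set fell for both genes, and 2 of 3 KO VSMC sets fell for Anxa8 and none for Aldh3a1.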

How the results depend on the processing

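The count of 55 DEG for ALL stressors against Control became 134 with DESeq2 alone, 128 without the count filter, 87 with only the libraries of the 2 conditions, 124 with complete sets only, 88 with the 3 pairs alone and 19 at a log2FC of at least 1, and that of 53 against AII+NA became 129, 125, 142, 84, 145 and 21. Leaving out 1 set in turn gave 0 to 124 and 2 to 84, with set 7 and set 6 decisive for the lowest and set 5 for the highest counts. Without the replicate block both counts were 0, the genotype difference was 0, and of the 36 and 37 DEG called in WT VSMC and EC 0 and 2 were left. The additivity test gave 20 genes with edgeR without the count filter and 0 in its other settings, while DESeq2 called 0 with set 5 and 1370 without it. The genotype difference of 2 genes became 58 with DESeq2, 323 without the count filter, 7 without KO VSMC set 5 and 0 with only Control and ALL libraries, and 0 to 7 when 1 set was left out. The Egfr difference was -7.94 without set 5 (exact permutation p = 0.0571). No DEG named by the rule changed direction, which their agreement in 3 of 3 pairs makes all but certain. Medians of lists near 0 and single genes that were not called did change sign, among them fatty acid uptake and activation (0.07 to -0.01) and matrix proteases and inhibitors (-0.01 to 0.05) without set 5. With 3 pairs the test is weak against small changes, and a gene that was not called is not shown to be unaffected. Some settings also hold fewer libraries, and the causes of these shifts were not tested.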

Other observations

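Among the genes that were DEG without set 5 only were several secreted or signalling proteins, named after their values were seen. Penk, the precursor of enkephalins, went from 6.5, 6.55 and 16.9 FPM under Control to 2.20, 0.783 and 6.45 FPM under ALL stressors in sets 6, 7 and 8 (log2FC -1.86, edgeR FDR = 0.00980). Nrtn, a growth factor of the GDNF family, fell without overlap from 129, 274 and 191 FPM to 85.7, 63.8 and 79.2 FPM (log2FC -1.35, FDR = 0.00827). Apod, a lipid-binding apolipoprotein, had a log2FC of -1.72 (FDR = 0.00980), with 26.4% of its exonic bases in other genes. F2r, the thrombin receptor, rose from 401, 344 and 173 FPM to 515, 587 and 397 FPM (log2FC 0.75, FDR = 0.0222). Maoa, the monoamine oxidase that degrades noradrenaline, went from 92.4, 330.3 and 153 FPM to 115, 709 and 225 FPM (log2FC 0.66, FDR = 0.0309). With set 5 in the fit the FDR of these genes was 0.0947, 0.139, 0.0541, 0.122 and 0.108 in the same order.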
